A study of Mus musculus with 27 samples.

Results

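Where LXR, ATF3 and P300 sat in healthy Kupffer cells was set against how much acetylated histone H3 lysine 27 (H3K27ac) each place carried. Kupffer cells are the resident macrophages of the liver. The cells came from C57BL/6J mice on control diet and were sorted as F4/80-high, Tim4-positive hepatic macrophages. The labels give no age and no genetic change. Of the 27 chromatin immunoprecipitation samples of the series, 8 were used, which were all Kupffer cell control-diet samples of these targets: 2 libraries each for H3K27ac, LXR, ATF3 and P300. The members were chosen by label alone: the control H3K27ac values at 70300 windows, each an ATAC-seq peak (a stretch of open chromatin) with a median width of 204 bp, and the control site list of each factor. A window was called a promoter when its centre lay up to 1000 bp from the annotated start of a gene, which held for 20722 windows, and distal otherwise, which held for 49568 windows; 10 windows had no distance and were left out. At the limit, the 641 windows at 900 to 1000 bp had a median H3K27ac of 11.2 tags per 10000000 and the 586 windows at 1000 to 1100 bp had 11.9. The peaks were merged from a control and a 20-week diet list, and 1151 promoter and 5684 distal windows were on the 20-week list only. Those distal windows had a median of 1.105 (1.06 and 0.88 in the 2 libraries), with LXR sites in 12.2%.

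H3K27ac marks active promoters and enhancers, and P300 is one of the enzymes that write it. LXR is a nuclear receptor for oxysterols that switches on cholesterol export and lipid synthesis genes and takes part in Kupffer cell identity. ATF3 is a stress-induced transcription factor of the ATF/CREB family that pairs with other leucine zipper factors on CRE and AP-1 elements.

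The CRE, the textbook element of the ATF/CREB family, gives a first view of sequence beside occupancy and acetylation. In RefSeq promoter sequences (build GRCm38.p6, 250 bases before to 50 after each start) the letters TGACGTCA, which read the same on both strands, were present in 4.78% of the 2638 promoters that had a window and a control ATF3 site. They were present in 3.24% of the 9111 with a window and no ATF3 site and in 1.79% of all 32817 RefSeq promoters. The AP-1 letters TGANTCA, searched on both strands, were in 6.71% and 4.38% of the same 2 groups and in 7.81% of all promoters. The CRE was not particular to ATF3: it was in 3.91% of promoters with and 2.75% without an LXR site. For P300 the shares were 4.12% and 3.00%, and of the 90 promoters with ATF3 alone 1.11% had it. The AP-1 letters were less frequent with an LXR site (4.63% against 5.59% without) and with a P300 site (4.49% against 5.35%). The DR4 element of LXR (AGGTCA repeated in the same direction 4 bases on, either strand) was in 5 of the 32817 promoters and in none of the 11749 with a window. Among promoters with a CRE, the median H3K27ac was 20.7 (20.1 and 20.3 in the 2 libraries) over 126 with an ATF3 site and 15.4 (15.8 and 13.7) over 295 without one. H3K27ac is given throughout as tags per 10000000 mapped tags of its library, averaged over the 2 libraries. Without a CRE the medians were 13.6 over 2512 promoters with an ATF3 site and 9.43 over 8816 without. The other factors showed the same order among promoters with a CRE. Medians were 18.4 with and 11.9 without an LXR site, and 18.96 with and 11.7 without a P300 site. These matches are a description of letters, not of bound sites.

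The following stretches show the same 8 letters, in capitals, in windows at the 2 ends of the H3K27ac range, with sites of all 3 factors or with none; each lies before the annotated start of its gene and is written 5′ to 3′ on the gene's strand.
Ankrd13c: gcgcagctgagTGACGTCAcgtccgatatc
Zfp335: tgggacctgcgTGACGTCAtgccacttccc
Styxl1: cgagcgaggccTGACGTCAcgattctctcc
Dusp1: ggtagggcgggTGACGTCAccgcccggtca
Olfm2: ggccggagccgTGACGTCAcggcggctgga

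Ankrd13c (chr3:157946941-157946970, plus strand) and Zfp335 (chr2:164911798-164911827, minus strand) were in windows with sites of LXR, ATF3 and P300, at 92.2 (89.8 and 94.6) and 90.3 (87.7 and 92.9). Styxl1 (chr5:135778511-135778540, minus strand) had all 3 sites too, at 4.58 (7.39 and 1.77). The CRE of Dusp1, a phosphatase that switches off MAP kinases (chr17:26508597-26508626, minus strand), was in a window without any site at 95.6 (101 and 89.8). Olfm2 (chr9:20727049-20727078, minus strand) had no site and no H3K27ac tag in either library. The stretches were picked from both ends of the range, so they give examples and no view of how often each case occurs. Over the genes they were picked from, the median H3K27ac was 19.99 for 42 genes with all 3 factors and 6.305 for 35 with none.

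Sites of the 3 factors were common in these windows. LXR sites lay in 53.7% of promoter windows and 52.3% of distal windows, ATF3 sites in 15.9% and 23.8%, and P300 sites in 37.6% and 30.1%. All 3 met in 11.4% of promoter and 16% of distal windows, and 39.7% and 42.7% held none. These shares are the background against which every count below is read. Most sites fell inside windows: 82.4% of the 44463 LXR sites, 92.6% of the 16109 ATF3 sites and 88.6% of the 25219 P300 sites.

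Promoters carried more H3K27ac than distal windows, with medians of 13.8 (14.8 and 11.9) and 3.80 (4.22 and 3.54). In distal windows each factor's site went with a clearly higher level. Distal windows with a P300 site had a median of 8.04 (8.45 and 7.52), against 2.43 (3.17 and 2.21) without, a difference of 1.40 on the log2(value + 1) scale (1.18 and 1.41 in the 2 libraries). For LXR the distal medians were 5.96 (6.34 and 5.31) and 1.86 (2.11 and 1.77), a difference of 1.28 (1.24 and 1.19). For ATF3 they were 6.66 (7.39 and 6.19) and 2.91 (3.17 and 2.65), a difference of 0.97 (1.01 and 0.98). All 3 distal differences exceeded the SD between the libraries, which was 0.16, 0.04 and 0.02.

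At promoters the differences were small. P300 went with 17.2 (19.0 and 15.0) against 10.97 (12.7 and 9.29), a log2 difference of 0.61 (0.55 and 0.64). LXR went with 14.7 (15.8 and 12.8) against 12.2 (13.7 and 10.2), a difference of 0.25 (0.19 and 0.31; SD 0.08). ATF3 went with 15.2 (15.8 and 13.7) against 13.4 (14.8 and 11.1), a difference of 0.17 (0.09 and 0.29), hardly more than its SD of 0.14. In the 2 libraries the sign was the same for each factor. With only windows that held a tag in both libraries, the promoter differences of LXR and ATF3 turned to -0.09 and -0.01, while that of P300 was 0.32. No p is given, since an exact two-sided sign-flip test over 2 libraries cannot go below 0.5 and windows are not replicates. Nothing in the labels says whether the 2 libraries came from separate animals.

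Position within the promoter mattered for these pooled values. H3K27ac was lowest in windows centred 250 to 100 bp before the start, with a median of 7.63 (8.45 and 6.19), and highest 250 to 500 bp after it, at 26.2 (29.6 and 22.6). Occupancy ran the other way: LXR sites lay in 71.3% and P300 sites in 51.9% of windows within 100 bp before the start, but in 28.9% and 17.2% of windows 250 to 500 bp after it. The open core, where the factors sat, was thus poorer in the mark than the downstream flank. Compared at the same position, the LXR and P300 differences each exceeded the pooled value in 6 of 8 bins of distance and the ATF3 difference in 5 of 8. Within 100 bp before the start, windows with an LXR site had a median of 12.3 and those without 5.02, a log2 difference of 1.14 (1.00 and 1.17). The P300 difference there was 1.10 (1.01 and 1.19), and that of ATF3 was 0.46 (0.45 and 0.60). Between 250 and 500 bp after the start the LXR difference was 0.18 (0.15 and 0.27) and the P300 difference 0.47 (0.43 and 0.61). There, and between 100 and 250 bp after the start, ATF3 differed in sign between the libraries (-0.08 and 0.22, then -0.18 and 0.34).

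**Figure D1:**
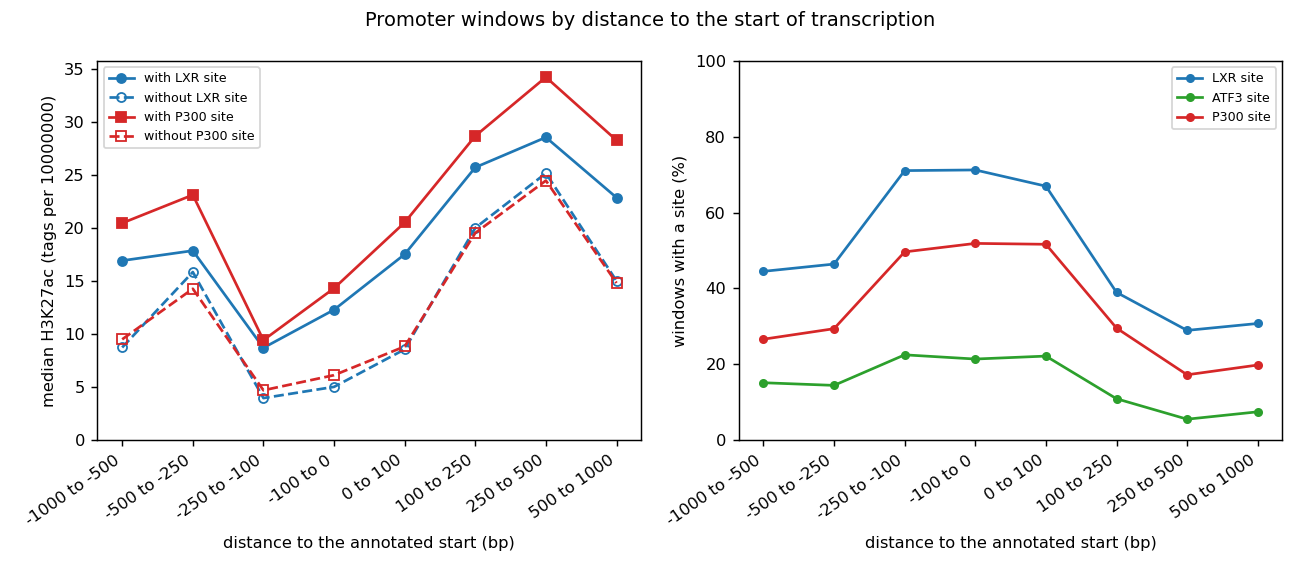
Promoter windows in 8 bins of distance to the annotated start (bp, negative before the start): left, median H3K27ac (tags per 10000000, mean of the 2 libraries) with (filled) and without (open) an LXR or P300 site; right, the percentage of windows with each factor's site. H3K27ac peaks at 250 to 500 bp after the start, where occupancy is lowest, and windows with a site lie above those without in every bin.

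Distal windows were more even. From 1000 to 2000 bp out to beyond 100000 bp from the start, the median fell away from 8.58 (9.51 and 7.52) to 2.30 (2.11 and 1.77), and LXR occupancy was 46.0% in the nearest and 54.8% in the farthest bin. The difference with a P300 site was between 1.16 and 1.50 in all 5 bins, and that with an LXR site between 0.95 and 1.39. For ATF3 it was between 0.61 and 1.03.

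Same-gene comparisons set bound against site-free windows, without matching position or openness. The authors' median ATAC peak score was 60.95 in the bound and 16.1 in the site-free promoter windows compared below, and 34.65 and 14.7 distally. Over all promoter windows, those with all 3 factors lay a median of 71 bp from the start and site-free ones 357 bp. Of 860 genes with both a promoter window holding all 3 factors and a site-free promoter window, the site-free window was the higher in 585 and the bound one in 275. The median was 17.9 (19.0 and 16.8) in the bound and 30.4 (31.7 and 27.9) in the site-free windows, a median log2 difference of -0.71 (-0.67 and -0.70). In distal windows the order was the reverse: of 3029 genes, the windows with all 3 factors were higher in 2217 and the site-free ones in 803. Their medians were 7.79 (8.45 and 7.52) and 2.86 (3.17 and 2.65), a median difference of 0.91 (0.90 and 0.93).

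Abca1, the cholesterol exporter and a classic LXR target, shows the promoter pattern. Its window centred 166 bp before the start (chr4:53159939-53160183) held sites of all 3 factors, with an LXR score of 278 and a P300 score of 126, yet had only 10.0 (11.6 and 8.40). The intronic window 532 bp after the start (chr4:53159228-53159498), with a P300 site only, had 135 (127 and 144). Of the 33 windows assigned to Abca1, 22 held an LXR site, 21 a P300 site and 11 an ATF3 site, with a median of 13.3 over all 33. Timd4, which encodes the Tim4 receptor used in the sort, was alike: 13.9 (12.7 and 15.0) in the window 110 bp before the start with all 3 sites, and 103 (92.9 and 112) in the site-free intronic window at +887 bp. Cd5l, an apoptosis inhibitor secreted by macrophages, had 31.8 (37.0 and 26.5) at +19 bp with all 3 sites and 71.4 (79.2 and 63.7) at +948 bp with none. At Clec4f, the Kupffer cell lectin, the promoter window with all 3 sites had 14.9 (16.9 and 12.8), and the highest of its 17 windows, 60.3 (53.9 and 66.8), was a site-free distal window at +18692 bp. In these 4 genes the window with the most H3K27ac was never one with sites of all 3 factors. That class made up 11.4% of all promoter and 16% of all distal windows.

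Other fixed loci varied. The highest windows of Abcg1 (86.2 at +350 bp) and Gapdh (44.1 at +214 bp) held no site, that of Srebf1, the lipogenic regulator, held P300 alone (102 at +261 bp), and that of Actb held LXR alone (35.2 at -14492 bp). The highest windows of Atf3 (77.7 at +857 bp), Jun (74.6 at +490 bp) and Junb (81.3 at +854 bp) held LXR and P300. Sites of all 3 factors marked the highest windows of Fos (138, 58913 bp downstream), Mylip, which degrades the LDL receptor (58.8), Marco, a scavenger receptor (21.96), Csf1r, the receptor for CSF1 (27.1), and Vsig4, a complement receptor (5.43). Among 16 loci, 5 thus had their highest H3K27ac on a window with all 3 factors and 5 on a window with none.

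Combining the 3 factors gave 8 classes of window. P300 stood out in both positions. At promoters, the 1058 windows with P300 alone had the highest median, 25.9 (27.5 and 23.2), followed by ATF3 with P300 at 20.3 (22.7 and 19.5; 140 windows). LXR with P300 had 16.3 (19.0 and 13.7), and all 3 together had 16.0 (16.9 and 15.0). The classes without P300 lay close together: 12 (13.7 and 10.2) for LXR alone, 11.9 (13.2 and 10.2) for ATF3 alone, 11.3 (12.7 and 10.2) for LXR with ATF3, and 10.4 (11.6 and 8.84) for none. The last 4 classes spanned less than the gap between the 2 libraries within each, but the first library was the higher in every class. Within each library the class without any site was the lowest. LXR alone stood above it by 0.22 and 0.18 on the log2 scale.

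Distal windows kept P300 on top but spread the other classes more. P300 alone had 10.0 (10.6 and 8.84), ATF3 with P300 had 9.67 (10.6 and 9.29), LXR with P300 had 8.07 (8.45 and 7.52) and all 3 had 7.82 (8.45 and 7.52). LXR with ATF3 had 4.68 (5.28 and 3.98), LXR alone 3.88 (4.22 and 3.54), ATF3 alone 2.91 (3.17 and 2.65) and none 1.64 (2.11 and 1.33). The 4 classes with P300 lay above the 4 without it in both libraries.

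**Figure D2:**
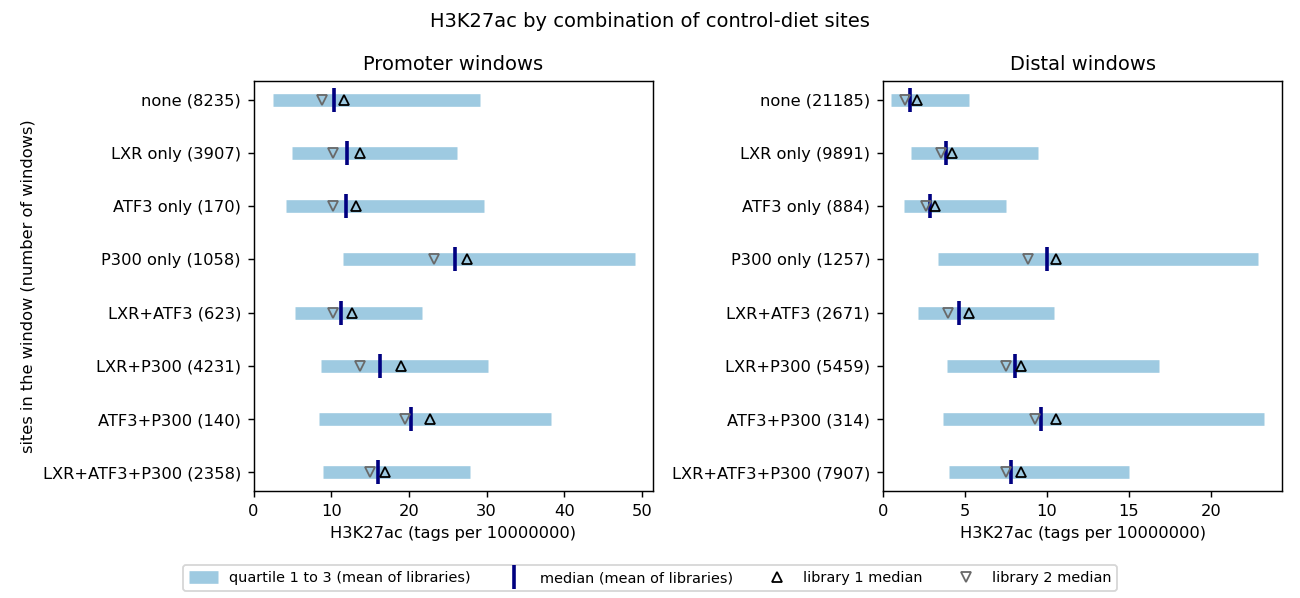
H3K27ac (tags per 10000000) in the 8 combinations of control-diet sites, with the number of windows in brackets: bars span the first to the third quartile and ticks mark the median of the 2-library mean, triangles the median of each library. By the 2-library mean, P300 alone is highest in both panels (25.9 at promoters, 10.0 distally). Distally, ATF3 with P300 equals it in the first library (10.6) and exceeds it in the second (9.29 against 8.84). The 4 distal classes with P300 all lie above those without.

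Adding 1 factor to the others therefore did not always go with more of the mark. A P300 site on top of LXR went with 0.41 more at promoters (0.44 and 0.40) and 0.89 more distally (0.86 and 0.91) on the log2 scale. An LXR site on top of nothing went with 0.19 more at promoters (0.22 and 0.18) and 0.89 more distally (0.75 and 0.96). On top of P300, however, an LXR site went with less: -0.63 at promoters (-0.51 and -0.72) and -0.28 distally (-0.29 and -0.21). P300 alone refers to the window only. An LXR site lay within 1000 bp of 69.8% of the promoter and 48.0% of the distal windows with P300 alone, so many of them flanked an LXR site. An ATF3 site on top of LXR and P300 went with a difference of -0.03 at promoters, opposite in sign in the 2 libraries (-0.16 and 0.12), and of -0.04 distally (0 in each library alone). Windows with P300 alone were less accessible than those with LXR and P300. Their median ATAC peak score, the authors' own, was 30.4 against 50.4 at promoters and 16.4 against 22.5 distally. Within quintiles of ATAC score, promoters with P300 alone stayed above those with LXR and P300 in all 5 (28.3 against 18.6 in the lowest quintile, 11.6 against 11.1 in the highest). They also lay farther from the start, with a median distance of 159.5 bp against 69 bp. Averaged within ATAC-score quintiles, P300 alone exceeded all 3 factors by 0.64 at promoters and 0.53 distally on the log2 scale, and averaged within bins of distance by 0.49 and 0.25, against 0.66 and 0.32 without such bins. The other classes were not compared in this way.

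Accessibility alone was a poor guide to H3K27ac at promoters. In the quintiles of ATAC score from lowest to highest the promoter medians were 9.65, 16.1, 18.8, 16.2 and 10.2, so both the least and the most open promoters were low. Across the same quintiles LXR occupancy went from 16.9% to 85.3% and P300 occupancy from 8.90% to 63.6%. The P300 difference was positive in each quintile, from 0.49 to 1.17 at promoters and from 1.11 to 1.38 distally, in both libraries. The LXR difference ranged from 0.14 to 0.57 at promoters and from 0.82 to 1.32 distally, also positive in both libraries. For ATF3 the promoter difference was 0.02 and 0.01 in quintiles 2 and 3, and negative there in the first library (-0.08 and -0.14).

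Seen from the H3K27ac side, occupancy did not climb steadily with the mark. Promoters were split into deciles of H3K27ac. LXR sites were in 19.9% of the lowest decile, 65.6% of decile 5 and 43.3% of the highest. P300 sites were in 5.79%, 46.2% and 39.2% of the same deciles, and ATF3 sites in 3.38%, 21.4% and 10.6%. Distally LXR occupancy went from 16.3% to 71.6% in decile 8 and 59.9% in the highest, and P300 from 4.05% to 51.3% in decile 9 and 46.2% in the highest. ATF3 went from 5.41% to 36.4% in decile 9 and 27.3% in the highest. The most acetylated decile of either position thus held fewer sites of each factor than decile 9. The authors' ATAC score moved the same way at promoters, from 16.5 through a top of 38.7 in decile 4 to 23.3, and its part in the pattern was not tested.

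**Figure D3:**
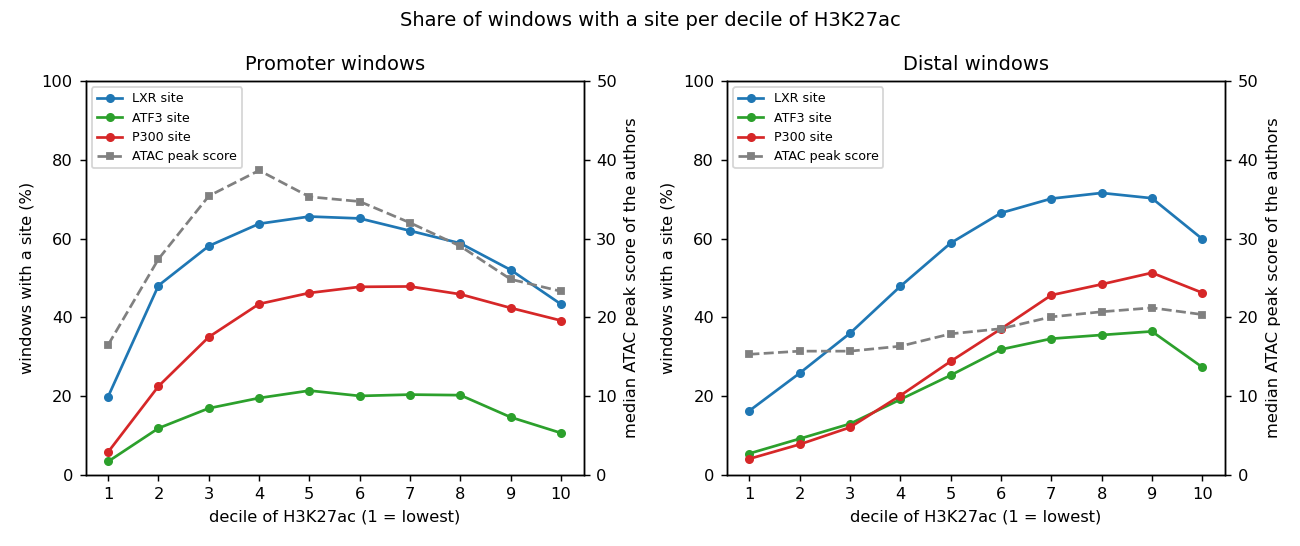
Percentage of windows with an LXR, ATF3 or P300 site (left axis) in each decile of H3K27ac (1 lowest, 10 highest), with the median ATAC peak score of the authors as the dashed grey line (right axis). Each factor's curve tops out before the highest decile; LXR reaches 65.6% in promoter decile 5 and 43.3% in the highest.

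The ends of the range made this concrete. Among promoters with all 3 factors, the highest H3K27ac was at the pseudogene Pisd-ps3 on the unplaced sequence JH584304 (323; 413 and 234). It was followed by the antiviral zinc finger gene Zc3hav1 (191; 174 and 209), Tbc1d9 (147; 138 and 157) and Neurl2 (125; 116 and 133). Promoter windows without any site reached as high or higher from the second rank on: the splicing kinase gene Clk1 (245; 215 and 274), the vesicle GTPase gene Rab1a (229; 242 and 215), Mir5620 (225; 198 and 253) and Stt3a, of the glycosylation machinery (213; 182 and 245). None of these 4 was centred within 250 bp of the start. Distally, windows with all 3 factors near Mllt6 (184; 233 and 134), Fos (138; 113 and 162), Kif11 (135; 121 and 148) and Tnfaip2 (124; 115 and 134) led, against site-free windows near Mir29b-1 (185; 149 and 222), the mRNA decay gene Zfp36 (164; 149 and 178), Iqgap1 (146; 126 and 167) and Rap1b (146; 124 and 168). The 2 sets overlapped in both positions.

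Bound windows without a single H3K27ac tag were rare. A tag alone does not make a window marked, since site-free distal windows beyond 20000 bp from any site held a median of 1 tag in each library. Of promoter windows with LXR and P300 but no ATF3, 2 of 4231 held no H3K27ac tag in either library, and these were at Scrt2 (LXR score 59) and Reep6 (LXR score 52). Among the 2358 promoters with all 3 factors none was without a tag, against 4.76% of the 8235 site-free promoters. Distally, 28 of 7907 windows with all 3 factors (0.35%) and 2370 of 21185 site-free windows (11.2%) held no tag. Among empty distal windows with both LXR and P300 sites, predicted genes left out, those with the highest LXR scores lay nearest to Mir691 and Mterf2. Their scores were 177 (585130 bp away) and 155.

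The strength of a site followed H3K27ac distally and hardly at promoters. The score of a site is the authors' enrichment score, whose unit is not stated, and where several sites met a window the highest was taken. In distal windows the H3K27ac median went from 3.53 (4.22 and 3.10) in the lowest quintile of LXR score to 9.18 (9.51 and 8.84) in the highest. For P300 it went from 5.69 (6.34 and 5.31) to 10.8 (11.6 and 10.2). Spearman's rho across windows was 0.27 for LXR over 25928 windows (0.25 and 0.26) and 0.23 for P300 over 14937 (0.21 and 0.22). At promoters the LXR quintiles went from 12.9 (14.8 and 11.1) to 16.2 (18.0 and 15.0) and the P300 quintiles from 14.4 (15.8 and 12.4) to 20.4 (21.1 and 18.1), with rho of 0.08 over 11119 windows and 0.12 over 7787. These correlations describe windows that share their libraries, depth and openness, and scores correlated with ATAC score too, at 0.43 for LXR and 0.38 for P300 distally.

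**Figure D4:**
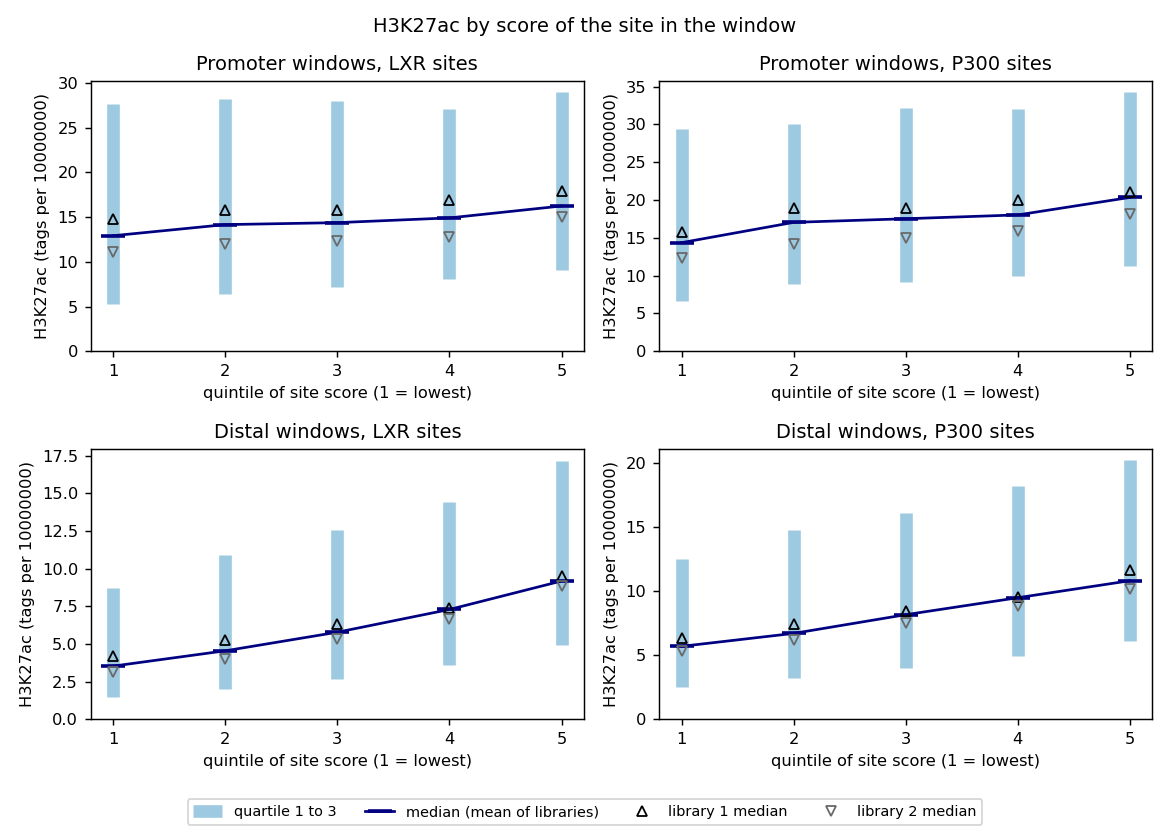
H3K27ac (tags per 10000000) in quintiles of the score of the LXR (left) or P300 (right) site in the window, for promoter (top) and distal (bottom) windows: bars span the first to the third quartile, the line joins medians of the 2-library mean and triangles mark each library. Distal medians climb from 3.53 to 9.18 for LXR and from 5.69 to 10.8 for P300, promoter medians from 12.9 to 16.2 and from 14.4 to 20.4.

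Holding the other factor fixed separated the 2 scores. In promoters that also held P300, the lowest and highest LXR quintiles differed little, and in opposite directions in the 2 libraries. The medians were 17.2 (19.0 and 15.0) in the lowest and 16.9 (18.0 and 15.5) in the highest, with rho 0.02 over 6589 windows. In promoters without P300 the values were 10.9 (12.7 and 9.29) and 14.0 (15.8 and 12.2). Distal windows with P300 went from 6.64 (7.39 and 5.75) to 9.35 (9.51 and 8.84) over the LXR quintiles, and those without P300 from 3.14 (3.17 and 2.65) to 7.80 (8.45 and 7.07). In the lowest LXR quintile 16.4% of distal windows held P300, in the highest 86.2%. The steepest gradient was that of P300 in distal windows without LXR, from 5.84 (6.34 and 5.31) to 22.3 (23.2 and 20.3), with rho 0.35 over 1571 windows. With LXR the P300 quintiles ran from 5.65 (6.34 and 5.31) to 10.6 (10.6 and 10.2). The ATF3 list holds no such score. Split by its IDR score, a measure of agreement between replicates, distal ATF3 windows at the highest value of 1000 had 7.37 (7.39 and 7.07) and the others 5.33 (5.28 and 4.86).

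The very highest scores sat on repeats. The top LXR (1040) and P300 (1512) scores were both in 1 distal window on satellite DNA, 1199530 bp from Lrrc4c (chr2:98667086-98667288), which alone took 2.44% and 2.39% of the tags of the 2 libraries inside windows. The next were on the ribosomal RNA repeat Rn45s (LXR 543, P300 631), where H3K27ac was 22.3 (32.7 and 11.9) and 29.9 (33.8 and 26.1). Outside repeats, the top promoter scores for LXR were at Nfkbia, the NF-kB inhibitor (438), with 11.5 (19.0 and 3.98) of H3K27ac, and at the lysosomal transporter gene Slc15a3 (435), with 35.7 (37.0 and 34.5). For P300 they were at Eapp (284), with 73.2 (70.8 and 75.6), and Tex14 (269), with 17.6 (12.7 and 22.6). Distally Paqr9 led for LXR (511), with 18.2 (22.2 and 14.2), and Ly6c2 for P300 (404), with 137 (140 and 133). Strong sites were also found without a tag: the distal windows of Mir691 (LXR 177) and Mterf2 (LXR 155, P300 71) held no tag in either library, although both LXR scores were in the highest distal quintile, which began at 123.

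Windows without any site carried much H3K27ac when a site was near. Site-free promoter windows had a median of 29.1 (31.7 and 26.5) within 200 bp of the nearest site of any factor, 17.7 (19.0 and 15.9) at 200 to 500 bp, 9.01 (9.51 and 7.96) at 500 to 1000 bp and 1.28 (2.11 and 0.88) beyond 20000 bp. Distally the values were 17.1 (18.0 and 16.4), 9.91 (10.6 and 9.29), 4.82 (5.28 and 4.42) and 0.67 (1.06 and 0.44). The nearest class lay above every class of bound window in its position, in both libraries. At promoters these classes also differed in distance from the start. The median was 336 bp for site-free windows within 200 bp of a site and 90 bp for those beyond 20000 bp. For windows with all 3 factors it was 71 bp, and for P300 alone 159.5 bp. The part of position in this gradient was not tested. Beside a P300 site, within 200 bp, the medians were 36.5 (39.1 and 33.6) at promoters and 23.6 (23.2 and 23.9) distally. Beside an ATF3 site they were 36.7 (37.0 and 34.9) and 23.3 (22.2 and 23.9), close to those beside P300. Beside an LXR site they were 28.1 (30.6 and 25.2) and 17.9 (18.0 and 17.2).

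**Figure D5:**
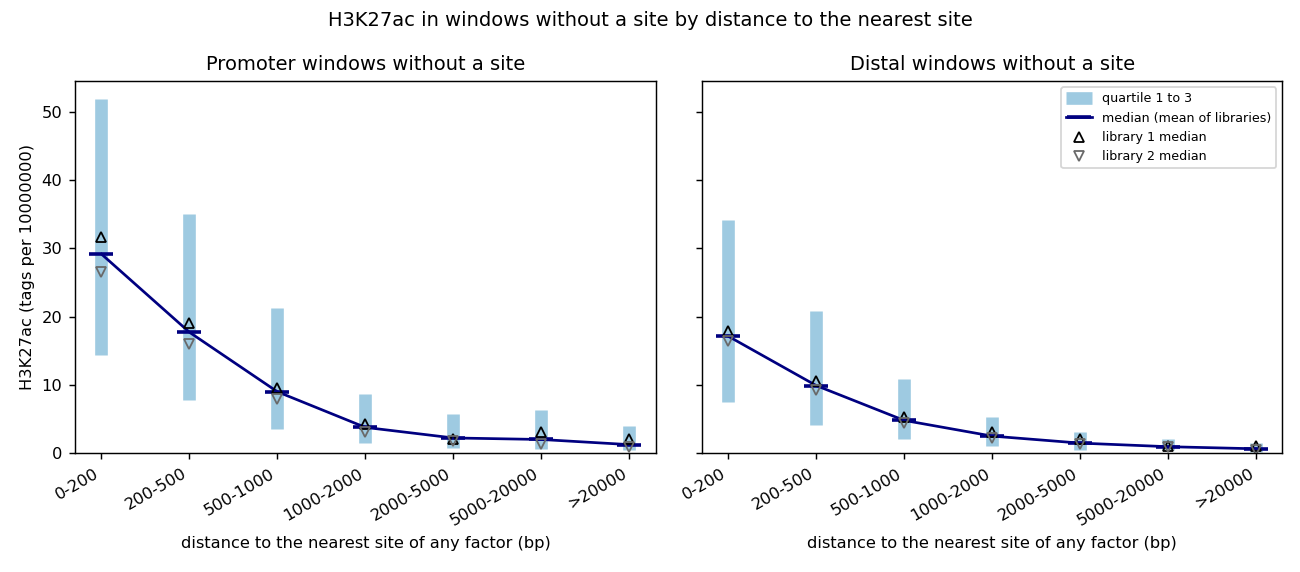
H3K27ac (tags per 10000000) in windows without a site, by distance to the nearest LXR, ATF3 or P300 site (bp, edge to edge): bars span the first to the third quartile, the line joins medians of the 2-library mean and triangles mark each library. The medians drop from 29.1 to 1.28 at promoters and from 17.1 to 0.67 distally.

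Proximity to both factors went with the most. Site-free distal windows with LXR and P300 sites both within 1000 bp had 16.2 (16.9 and 15.9; 2981 windows). Those with only LXR near and P300 beyond 5000 bp had 4.07 (4.22 and 3.54; 1339 windows), and the opposite case had 3.49 (4.22 and 3.10; 105 windows). At promoters the 3 values were 26.1 (27.5 and 23.4), 10.98 (12.7 and 8.84) and 18.7 (20.1 and 15.9). Since 60.8% of site-free promoters and 24.3% of site-free distal windows had an LXR site within 1000 bp, the pooled site-free class mixed flanks of bound regions with windows far from any site.

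Gene groups differed in how often their windows were bound. All 30 Kupffer cell identity genes had windows, but so did all 20 housekeeping genes and all 6 dendritic cell markers. Windows are ATAC-seq peaks, so their presence cannot check the labels of the ChIP samples. The 58 promoter windows of the Kupffer cell identity genes had a median of 26.98 (26.4 and 23.7). P300 sites lay in 45 of the 58 (77.6%, against 37.6% of all promoter windows), LXR in 35 (60.3%, against 53.7%), ATF3 in 23 (39.7%, against 15.9%) and all 3 in 19 (32.8%, against 11.4%). Their 342 distal windows had a median of 8.43 (9.51 and 7.96), with P300 in 48.8% (30.1% of all distal windows) and LXR in 64.3% (52.3%). LXR target genes had 46 promoter windows at 19.8 (20.1 and 19.2), with LXR in 65.2% (53.7% of all promoter windows) and P300 in 71.7% (37.6%). Housekeeping genes were close to these, with LXR in 72.1% and P300 in 67.4% of 43 promoter windows at 21.1 (20.1 and 18.1), so LXR sites were no more frequent in the promoter windows of the LXR target list than in these.

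Stress and inflammatory genes differed from each other. The 67 promoter windows of AP-1, ATF and immediate early genes had the highest median of the 6 groups, 29.3 (32.7 and 24.3), with P300 in 50.7% (37.6% of all promoter windows), LXR in 44.8% (53.7%), ATF3 in 17.9% (15.9%) and all 3 in 10.4% (11.4%). NF-kB inflammatory genes had 17.1 (19.0 and 16.4) over 45 promoter windows, with LXR in 62.2% (53.7% of all), P300 in 46.7% (37.6%), ATF3 in 33.3% (15.9%) and all 3 in 26.7% (11.4%). Lysosome and phagocytosis genes had 24.6 (29.6 and 20.1) over 38 promoter windows, and their 157 distal windows had the highest distal median, 10.6 (10.6 and 10.6), with all 3 factors in 31.2% (16% of all distal windows). Markers of other liver and blood cells were nearly without marked promoters. Hepatocyte and stellate cell markers had 0 promoter windows, and those of endothelium, B cells, T and NK cells, neutrophils, dendritic cells and cholangiocytes had 9 in all, with summed H3K27ac per list from 0 to 3.17 in the first library and from 0 to 1.77 in the second. Their distal windows did carry the mark in places. The 26 distal windows of dendritic cell markers had a median of 6.95 (7.92 and 5.97), above the 3.80 of all distal windows, with up to 36.9 at Clec9a, 28.2 at Xcr1 and 21.3 at Ccr7. Zbtb46 reached 9.31, and no window of Flt3 or Siglech exceeded 0.53. The 14 of T and NK cell markers had 4.10 (4.75 and 3.32), with up to 43.1 at Klrb1c and at most 5.11 at the other genes. Over the other lists the distal medians were 1.13 for hepatocytes (8 windows), 2.47 for endothelium (21), 7.52 for stellate cells (2), 3.80 for B cells (5), 1.98 for neutrophils (8) and 0.97 for cholangiocytes (7). The highest windows of these lists, in the same order, were 10.6 at Ttr, 27.6 at Pecam1, 14.8 at Pdgfrb, 9.85 at Cd79b, 19.6 at Elane and 5.78 at Epcam. The part of other cells in the values was not tested.

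The 2 H3K27ac libraries held 9468035 and 22615879 tags, of which 9.60% and 8.86% lay in windows, a median of 6 and 11 tags per window. One tag was worth 1.06 and 0.44 units, so distal medians move in steps of that size. Their log2 values correlated at Pearson's r of 0.89 across all windows, which describes agreement over windows and not over samples. Windows are about as wide as the open stretch itself, so acetylated histones beside it fall outside the window, and the values do not measure the whole domain.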

How the data were processed

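The members and the gene lists were chosen with earlier results of these data known. The deposited H3K27ac values are HOMER signal: the tags in each window, scaled by the authors to 10000000 tags per library, per the file headers. Multiplied by the library total in the header, all values came out as whole tags within 0.02. Windows are the authors' merged ATAC-seq peaks, and the peak score is a deposited score of unstated unit. Bowtie2, HOMER, DESeq2 and the build mm10 (GRCm38) come from the submitters' processing notes; versions are not given in the sources used here. LXR and P300 sites were listed by the authors once per factor from 2 libraries at an IDR threshold of 0.05, with an enrichment score, per the file headers; the depth of these libraries is unknown. The ATF3 list had been merged with HOMER from an IDR output named for pooled samples, and its columns are unnamed.

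A site was counted in a window when they shared at least 1 bp (checked with bedtools 2.31.1). Medians over windows, log2(value + 1) differences of medians and Spearman correlations were computed per library and for the mean of both in Python 3.11.15 with pandas 2.3.3, NumPy 2.4.6 and SciPy 1.17.1, on code tested on simulated data. No count model was run, since there is 1 group. The IDR score is in the column after the one first named for it. NASH-diet H3K27ac columns and site lists were not used, but windows on the 20-week ATAC list alone were kept. They include the windows named for Abcg1 (+350 bp), Junb (+854 bp), Mir5620 and Zfp36. HOMER's gene starts lay within 10 bp of a RefSeq start of the same symbol for 91.1% of 52922 windows that matched by symbol; 11749 RefSeq promoters overlapped a window. Named windows were the 4 with the highest H3K27ac with all 3 factors and with none, the 2 with LXR and P300 and no tag, and the 3 highest LXR and P300 scores, per position and leaving out predicted genes, and 16 set loci. The printed CRE stretches were chosen after their values were seen.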

Additional observations from a re-analysis of the deposited data

How the results depend on the processing

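Over 20 alternatives to the 6 differences with and without a site (120 values), 2 changed sign: LXR and ATF3 at promoters, at -0.091 and -0.0079, with only windows that held a tag in both libraries. Values are given as log2 differences, for LXR, ATF3 and P300 in that order where several stand together. In the same windows P300 had 0.32 at promoters, the distal differences were 0.64, 0.46 and 0.85, and P300 alone stood 0.47 above all 3 factors distally. With 1 library at a time, the distal differences ranged from 1.19 to 1.24, 0.98 to 1.01 and 1.18 to 1.41, and the promoter differences from 0.19 to 0.31, 0.09 to 0.29 and 0.55 to 0.64. P300 alone minus all 3 ranged from 0.59 to 0.67 at promoters and 0.21 to 0.29 distally. The score correlations ranged from 0.07 to 0.09 (LXR) and 0.11 to 0.12 (P300) at promoters, and 0.25 to 0.26 and 0.21 to 0.22 distally. The highest minus the lowest score quintile ranged from 0.36 to 0.44 and 0.44 to 0.56 at promoters, and from 1.01 to 1.26 and 0.78 to 0.93 distally. Occupancy in the highest minus the lowest decile ranged from 17.0 to 19.4, 4.82 to 6.71 and 29.6 to 29.9 percentage points at promoters, and from 35.7 to 38.1, 17.2 to 20.6 and 38.0 to 39.8 distally. Site-free windows within 200 bp of a site exceeded those beyond 20000 bp by 3.39 to 3.87 at promoters and 3.20 to 3.59 distally. With a promoter limit of 500 bp the distal LXR and ATF3 differences were 1.22 and 0.86, and P300 alone minus all 3 was 0.59 in both positions. With 2000 bp the promoter LXR and P300 differences were 0.39 and 0.72, the distal ATF3 difference 1.01, and P300 alone minus all 3 distally 0.13. With HOMER's own promoter class the promoter differences were 0.60, 0.34 and 0.80, the distal LXR and ATF3 differences 1.14 and 0.78, and P300 alone minus all 3 was 0.43 and 0.77. With the site centre inside the window the distal LXR and ATF3 differences were 1.17 and 0.91 and P300 alone minus all 3 was 0.42 and 0.24; with at least 50% of the window covered they were 1.22, 0.91 and, at promoters, 0.51. With the best-scoring 50% of sites, P300 alone minus all 3 was 0.30 and 0.66, and with sites at the highest IDR score 0.46 and 0.71, with 1.02 for distal ATF3. Windows of the control ATAC list gave 1.12, 0.78 and 1.21 distally. A pseudocount of 0.5 gave 1.45 and 1.07 for distal LXR and ATF3. A pseudocount of 4 gave distal differences of 0.77, 0.62 and 0.90, 0.51 for promoter P300, and 0.58 and 0.25 for P300 alone minus all 3. Values per 200 bp gave 1.23 and 0.93 for distal LXR and ATF3. Means of log2 values gave 0.38 and 0.68 for promoter LXR and P300, 0.93, 0.74 and 1.15 distally, and 0.53 and 0.25 for P300 alone minus all 3. Both stratified settings were chosen after seeing the data. Averaged within ATAC-score quintiles, promoter P300 was 0.76, the distal differences 1.13, 0.67 and 1.23, and P300 alone minus all 3 distally 0.53. Averaged within distance bins, the promoter differences were 0.65, 0.33 and 0.84, the distal LXR and ATF3 differences 1.20 and 0.89, and P300 alone minus all 3 was 0.49 and 0.25. Pearson's r on log2 values was 0.10 for promoter LXR, 0.26 for distal LXR and 0.25 for distal P300. With windows split by IDR score, which is tied at its top, the top minus the lowest quintile was 0.21 and 0.31 for LXR and P300 at promoters and 0.78 and 0.67 distally. Deciles over all windows gave 34.6, 11.1 and 38.4 points at promoters and 38.4, 17.6 and 39.8 distally. The cause of these shifts was not tested. Scaling to tags inside windows, leaving out repeat windows (also chosen after seeing the data), and leaving out X, Y and unplaced sequence moved no value by more than the library spread. No paired analysis was possible because no groups of samples are compared; each difference was taken within a library and is given for both. Depth limits the distal values: at 1.06 and 0.44 units per tag, the median distal window held 4 and 8 tags.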
